A study of Mus musculus with 15 samples.

Results

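The transcripts of 39 genes that make ribosomal RNA and assemble it into ribosomes were followed in mouse liver with age and with loss of ribosomal S6 kinase 1 (S6K1). The genes were listed by name for what their proteins do: RNA polymerase I and its factors (7 genes), the protein components of small nucleolar ribonucleoproteins (snoRNPs) of the box C/D class (3) and the box H/ACA class (4), abundant nucleolar proteins (5), and assembly factors of the small (11) and the large ribosomal subunit (9). All 39 were found by symbol among the 37991 gene identifiers of the count table, and all 39 were among the 14258 genes with enough counts to be tested. RNA sequencing was done on whole liver of female C57BL/6 mice in 3 groups of 5 animals, 1 library each. Young WT mice were wild type and 90 days old, old WT mice were wild type and 600 days old, and old KO mice were S6K1 knockout, also 600 days old. The mice came from heterozygous breeding, the knockout was in the germline and so in every cell of the animal, and the animals received no treatment that the labels name. There was no young KO group, so genotype was compared at 600 days alone.

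Ribosome production starts in the nucleolus, where RNA polymerase I transcribes the repeated ribosomal DNA into a long precursor RNA. Box C/D snoRNPs methylate riboses of this precursor and box H/ACA snoRNPs convert uridines to pseudouridine, while large sets of assembly factors fold and cut it into the RNAs of the small and the large subunit. The process takes much of the energy of a growing cell and is tuned by growth factors, nutrients, Myc and the mTORC1 and S6K pathway. Ribosomal RNA itself has no poly(A) tail, so the poly(A) libraries measured the messenger RNAs of this machinery and neither ribosomal RNA nor the activity of the polymerase.

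Total counts lay between 21801754 and 38065359 per library, and 4 of the 5 young WT libraries, but not young WT 6, held more than any old KO library. Levels are given as CPM, counts per 1000000 of the TMM-scaled library total. The targeted gene, Rps6kb1, read 38.1, 33.3, 41.4, 38.1 and 40.6 CPM in young WT (replicates 1, 2, 3, 4 and 6), 35.8, 34.6, 37.3, 38.8 and 45.4 in old WT (1, 4, 5, 7 and 10) and 16.3, 15.8, 16.9, 15.2 and 20.8 in old KO (1, 2, 4, 5 and 6), with no overlap of the old KO libraries with either WT group (log2 fold change -1.17 against old WT, SE 0.0979, edgeR adjusted p = 8.54e-06). The 8 hepatocyte markers summed to between 89500 and 154000 CPM in every library, all of them labelled as liver. In whole tissue, fewer cells of a type and less RNA per cell cannot be told apart.

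Transcripts of many, though not all, parts of the ribosome-making machinery were lower in old than in young WT liver. None of the 39 passed the test between the genotypes at 600 days, where 0.533% of all genes tested passed. With age, 21 of the 39 fell and none rose at an adjusted p under 0.05 (edgeR, adjusted over all 14258 genes tested), which is 53.8% of the list where 8.91% of all genes tested fell and 9.92% rose. The median log2 fold change of the 39 with age was -0.28, beside 0.008 over all genes tested. In 37 of the 39 the fitted change was below 0, and the exceptions were Dkc1 (0.045) and Npm1 (0.00028). The changes were moderate, with a fitted fall of at least 25% in 16 genes, and Rrp12 had the largest, -49.1%. In 16 of the 39 every old WT library lay below every young WT library, where this held for 5.67% of all genes tested. Of the 21 calls, 15 stood with any of the 15 libraries left out and 6 (Polr1e, Utp20, Nop14, Rrp9, Pes1 and Rrp1) did not.

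**Figure D1:**
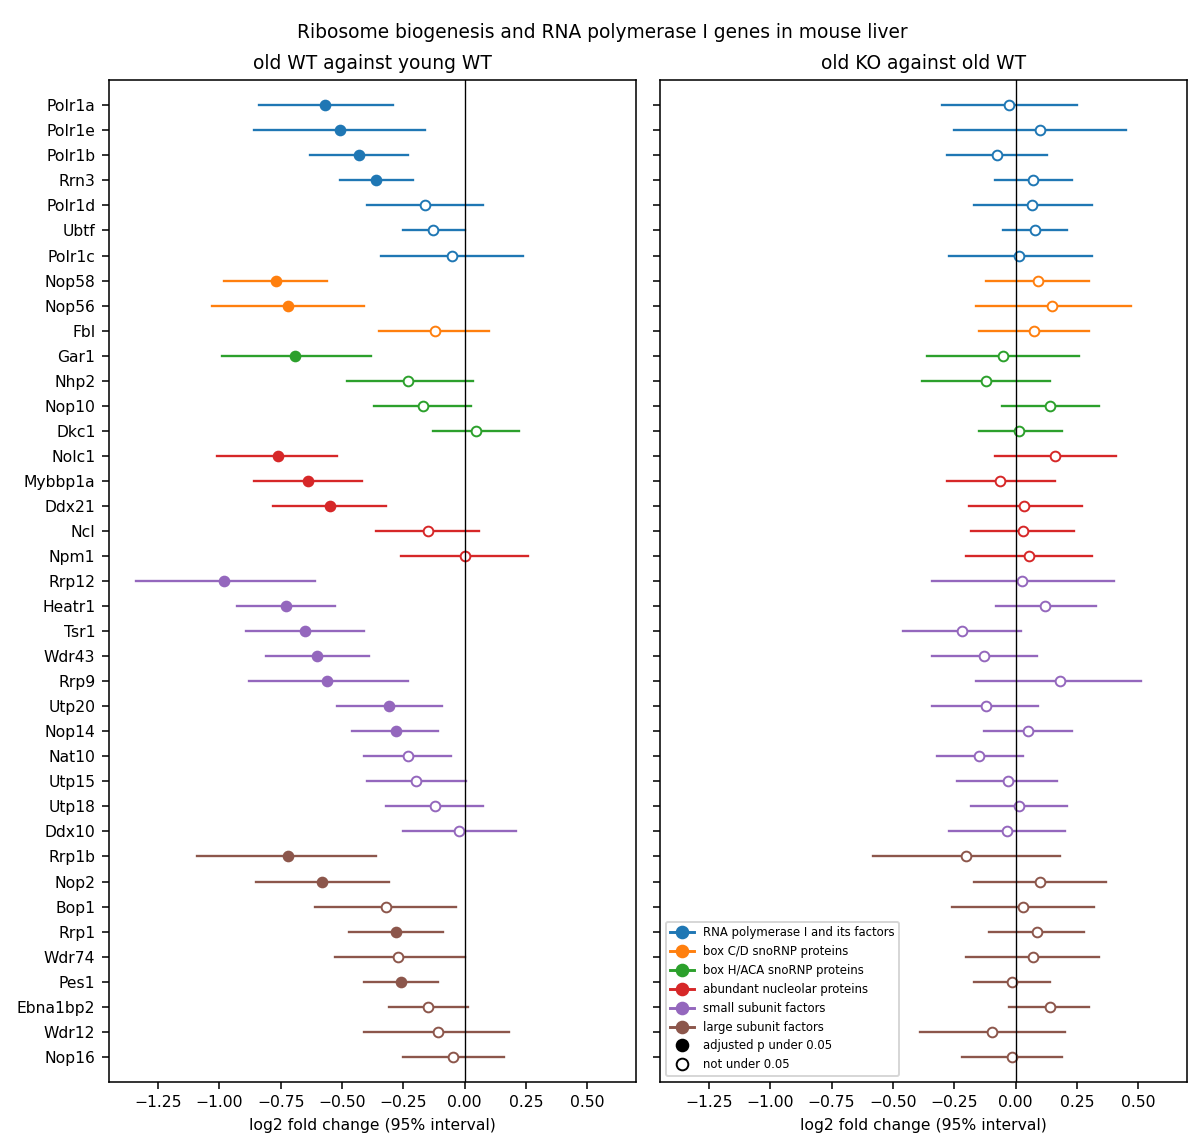
Log2 fold changes (x axis) of the 39 genes (y axis, coloured by role and ordered by the change with age within each role), old WT against young WT on the left and old KO against old WT on the right, with 5 libraries a group. Points are edgeR estimates, lines their 95% intervals, and filled points passed an adjusted p of 0.05: 21 on the left, all below 0, and 0 on the right. Of all genes tested, 8.91% fell with age and 0.533% passed between the genotypes.

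A mean over the 39 genes gives each library one value, the mean log2 CPM relative to the young WT mean. It was 0.22, 0.09, -0.12, -0.05 and -0.14 in young WT 1, 2, 3, 4 and 6, -0.45, -0.42, -0.37, -0.34 and -0.22 in old WT 1, 4, 5, 7 and 10, and -0.33, -0.37, -0.33, -0.44 and -0.25 in old KO 1, 2, 4, 5 and 6. The young libraries were the most spread (SD 0.15, against 0.091 in old WT and 0.071 in old KO), with young WT 1 highest, as it was among the young libraries in 32 of the 39 genes. All 5 young libraries lay above all 10 old ones, and the old KO libraries lay within the span of the old WT libraries. Young WT 6, the library with the fewest counts, was the lowest of its group at -0.14 and still above the highest old library at -0.22. The mean difference with age was -0.36 and that between genotypes 0.015, values given without a test because the genes were picked as a list.

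**Figure D2:**
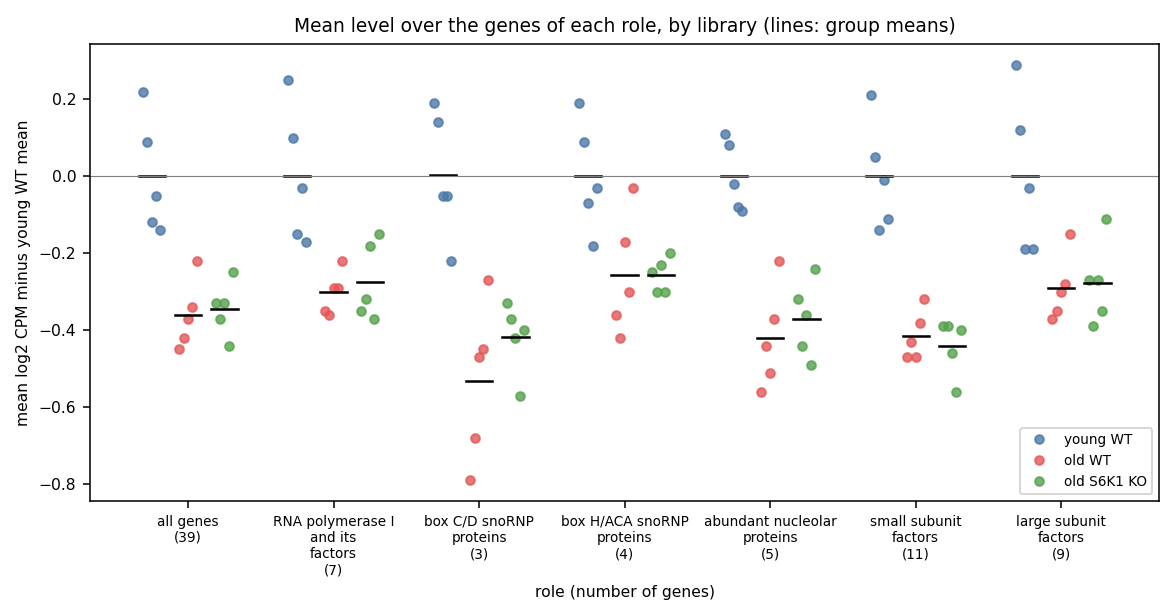
Mean log2 CPM relative to the young WT mean (y axis) over all 39 genes and over each role (x axis, number of genes in brackets), 1 point per library in order of replicate number, with lines for group means. For all 39 genes the young WT points lie between -0.14 and 0.22 and the old points between -0.45 and -0.22, and old WT and old KO points overlap in every role. Young and old points overlap in RNA polymerase I and its factors, the box H/ACA snoRNP proteins and the large subunit factors.

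The promoters of the 39 genes were read for the E-box CACGTG, the palindrome that Myc and related factors bind, because genes of ribosome production are classical Myc targets. RefSeq windows from 250 bases before to 50 bases from the start base (GRCm38.p6, not the build of the counts) were on hand for 35 of the 39 and not for Npm1, Fbl, Bop1 and Rrp12. CACGTG, which reads the same on both strands, was in 8 of the 35, beside 8.09% of all 27025 genes with a window and 11.6% of 9739 genes with a window that were tested, a share that covers the tested genes only in part. The 8 matched genes are shown with up to 12 bases on each side, shorter where the window ended, on the strand of the gene and with the E-box in capitals:
Mybbp1a, chr11:72441355-72441376 (+), motif 40 bases after the start base: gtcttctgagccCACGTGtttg
Nop2, chr6:125131811-125131840 (+), motif 60 bases before the start base: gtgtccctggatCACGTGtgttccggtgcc
Pes1, chr11:3963965-3963994 (+), motif 2 bases after the start base: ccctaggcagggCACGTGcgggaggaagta
Rrn3, chr16:13780472-13780501 (+), motif 215 bases before the start base: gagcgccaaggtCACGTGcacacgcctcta
Rrn3, chr16:13780639-13780668 (+), motif 48 bases before the start base: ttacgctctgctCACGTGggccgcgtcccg
Tsr1, chr11:74898092-74898121 (+), motif 24 bases after the start base: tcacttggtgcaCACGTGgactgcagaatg
Utp18, chr11:93885769-93885798 (-), motif 20 bases before the start base: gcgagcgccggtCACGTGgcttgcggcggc
Utp20, chr10:88826765-88826789 (-), motif 37 bases after the start base: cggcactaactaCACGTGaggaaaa
Wdr43, chr17:71616220-71616249 (+), motif 17 bases after the start base: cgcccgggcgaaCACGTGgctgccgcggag

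The flanks differed from gene to gene, and 5 of the 9 matches lay in the first bases of the transcript. All of these genes except Utp18 fell with age, that is 7 of the 20 fallen genes with a window against 1 of the other 15. A match is a run of letters and not a measured binding site, and binding was not measured in these samples. An E-box variant, CACGCG on either strand, was in 13 of 35 windows (18.8% of those tested genes) with 6 of 20 fallen genes and 7 of 15 others. CCGGAAG, the core bound by ETS-family factors, was in 13 of 35 (18.4% of tested genes), 7 of 20 and 6 of 15, and the CCAAT box in 12 of 35 (42.8% of tested genes), 5 of 20 and 7 of 15, both read on either strand. The motifs were chosen with the results known, and no test was made of these shares.

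Among RNA polymerase I and its factors, 4 of 7 fell with age, beside 8.91% of all genes tested. The 4 included both catalytic subunits. Polr1a, the largest subunit (chromosome 6, 71859047 to 71929350, plus strand, mm9), went from 35.3 ± 7.02 CPM (mean ± SD, n = 5 young WT) to 23.9 ± 3.10 in old WT, with 23.4 ± 2.90 in old KO, and it fell by 0.57 on the log2 scale (SE 0.13, adjusted p = 0.00778). Polr1b, the second catalytic subunit (chromosome 2, 128926731 to 128952330, plus strand), read 30.3, 26.1, 21.5, 24.1 and 20.8 CPM in the young WT libraries, 17.9, 17.5, 17.7, 19.8 and 18.2 in old WT and 17.0, 17.4, 17.9, 15.4 and 18.9 in old KO. Its lowest young value, 20.8, was above the highest old one, 19.8, and with age it fell by 0.43 on the log2 scale (SE 0.0953, adjusted p = 0.00629). Rrn3, the gene with a pair of E-boxes, codes for the initiation factor that brings the polymerase to the ribosomal DNA promoter in growing cells (chromosome 16, 13780792 to 13814933, plus strand). It read 24.9, 24.3, 21.2, 21.4 and 23.3 CPM in young WT, 17.4, 16.9, 18.2, 17.96 and 19.4 in old WT and 17.4, 20.5, 18.9, 17.7 and 19.7 in old KO. The groups of different age did not overlap, the spread was small, and Rrn3 fell by 0.36 on the log2 scale (SE 0.0728, adjusted p = 0.00402). Polr1e, a peripheral subunit and the least expressed of the list per kilobase of exon, went from 4.59 ± 1.16 to 3.23 ± 0.30 CPM and fell by 0.51 on the log2 scale (SE 0.164, adjusted p = 0.0399), a call lost without young WT 1 or 2 or old WT 1, 4, 7 or 10, with an adjusted p of up to 0.12.

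The other members of this role did not pass. Polr1c and Polr1d, subunits that RNA polymerase III also contains, had log2 fold changes of -0.05 (SE 0.136) and -0.16 (SE 0.113). Ubtf, the architectural factor of active ribosomal DNA, read 61.2 to 70.3 CPM in young WT libraries and 56.3 to 61.8 in old WT libraries, a log2 fold change of -0.13 with the smallest spread between libraries of all 39 genes (pooled SD 0.0719 log2 units, adjusted p = 0.163).

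Of the box C/D snoRNP proteins, both scaffold proteins fell and the methyltransferase did not pass the test. Nop58 (chromosome 1, 59741853 to 59768968, plus strand) read 35.4, 31.1, 31.4, 34.7 and 32.3 CPM in young WT, 16.8, 18.03, 19.7, 18.7 and 23.7 in old WT and 23.1, 20.7, 19.96, 17.1 and 22.4 in old KO. The gap between 31.1, the lowest young value, and 23.7, the highest old one, was wider than the spread within any group, and Nop58 fell by 0.77 on the log2 scale (SE 0.0976, adjusted p = 0.000241). Nop56, its partner (chromosome 2, 130100166 to 130105049, plus strand), went from 25.3 ± 5.75 to 15.4 ± 2.85 CPM with age (old KO 17.1 ± 1.02). It fell by 0.72 on the log2 scale (SE 0.148, adjusted p = 0.00431), although young WT 6 at 17.5 lay among the old libraries. Fbl, fibrillarin, which transfers the methyl group, had a log2 fold change of -0.12 (SE 0.106, adjusted p = 0.449).

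Of the box H/ACA proteins, 1 of 4 fell, beside 8.91% of all genes tested. Gar1 (chromosome 3, 129527830 to 129534314, minus strand) read 8.87, 7.999, 6.75, 6.12 and 7.07 CPM in young WT, 3.69, 3.66, 4.77, 4.84 and 5.92 in old WT and 4.68, 4.87, 4.54, 4.15 and 3.81 in old KO. All 10 old libraries were below the lowest young one, 6.12, and Gar1 fell by 0.69 on the log2 scale (SE 0.144, adjusted p = 0.00464). Its partners in the same particle had smaller estimates: Nhp2 had -0.23 (SE 0.122), Nop10 -0.17 (SE 0.0933) and Dkc1, the pseudouridine synthase dyskerin, 0.045 (SE 0.0804), none past the threshold. Dkc1 read 15.8 to 19.8 CPM in young WT and 16.9 to 21.4 in old WT. No test compared these genes with each other.

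Of the abundant nucleolar proteins 3 of 5 fell, beside 8.91% of all genes tested, and Ncl and Npm1 did not pass. Nolc1, a chaperone of snoRNPs (chromosome 19, 46150353 to 46160018, plus strand), read 47.3, 41.0, 36.7, 44.9 and 31.0 CPM in young WT, 21.7, 21.8, 28.3, 19.6 and 27.0 in old WT and 28.5, 24.8, 25.8, 26.6 and 27.0 in old KO. Old KO 1 and old WT 5 came closest to young WT 6, the lowest young library, and Nolc1 fell by 0.76 on the log2 scale (SE 0.117, adjusted p = 0.000802). Mybbp1a, a nucleolar protein first found as a partner of the Myb transcription factor (chromosome 11, 72254857 to 72265270, plus strand), read 88.5, 81.4, 62.0, 67.1 and 58.2 CPM in young WT, 45.3, 46.2, 41.5, 45.7 and 51.0 in old WT and 47.0, 41.6, 43.5, 40.7 and 47.1 in old KO. The ages did not overlap, and Mybbp1a fell by 0.64 on the log2 scale (SE 0.105, adjusted p = 0.0012). Ddx21, an RNA helicase (chromosome 10, 62042996 to 62065046, minus strand), read 80.7, 74.6, 69.5, 69.3 and 61.0 CPM in young WT, 41.8, 49.6, 42.0, 53.0 and 56.2 in old WT and 55.3, 52.6, 43.4, 42.0 and 55.5 in old KO. Again every old library was below every young one, and Ddx21 fell by 0.55 on the log2 scale (SE 0.108, adjusted p = 0.00348).

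Ncl (nucleolin) and Npm1 (nucleophosmin) were the most abundant of their role, at 29.5 and 45.0 CPM per kilobase of exon in young WT, where the 39 genes spanned 1.18 (Polr1e) to 45.0 (Npm1) and Rrp1, of the large subunit, stood between them at 37.2. Ncl read 219 to 273 CPM in young WT and 189 to 248 in old WT, a log2 fold change of -0.15 (SE 0.0997). Npm1 read 94.1 to 141 and 103 to 140 CPM, a change of 0.00028 (SE 0.122). Npm1 has processed pseudogenes of near-identical sequence, so part of its short reads may be lost or misplaced.

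Small subunit factors had the largest fold change of the list and 7 of 11 members that fell, beside 8.91% of all genes tested. Rrp12, which takes part in export and maturation of the subunits (chromosome 19, 41937342 to 41970643, minus strand), read 20.01, 16.1, 11.6, 12.9 and 8.79 CPM in young WT, 6.22, 6.54, 7.28, 7.84 and 7.54 in old WT and 7.34, 7.37, 6.55, 6.37 and 8.45 in old KO. Young WT ran from 8.79 to 20.01, the widest spread in the list (pooled SD 0.287 log2 units), yet stayed above every old library, and Rrp12 fell by 0.98 on the log2 scale (SE 0.171, adjusted p = 0.00173). Heatr1, a component of the early complex that also links processing to transcription of ribosomal DNA (chromosome 13, 12487665 to 12530944, plus strand), read 36.8, 30.3, 25.4, 32.0 and 25.7 CPM in young WT, 18.2, 18.1, 17.6, 17.7 and 18.9 in old WT and 21.6, 19.9, 18.5, 17.9 and 20.8 in old KO. The old WT libraries were almost equal to each other (SD 0.5018 CPM), and Heatr1 fell by 0.73 on the log2 scale (SE 0.0953, adjusted p = 0.000254).

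Wdr43, of the same early complex (chromosome 17, 71965555 to 72008371, plus strand), read 44.0, 38.8, 34.6, 42.7 and 37.7 CPM in young WT, 22.7, 25.2, 23.7, 26.2 and 32.9 in old WT and 25.1, 25.9, 24.7, 21.4 and 22.7 in old KO. Old WT 10 at 32.9 came close to the lowest young value of 34.6, and Wdr43 fell by 0.60 on the log2 scale (SE 0.0997, adjusted p = 0.00136). Tsr1, a late factor of the cytoplasmic steps (chromosome 11, 74711573 to 74722844, plus strand), read 24.4, 19.9, 18.4, 22.5 and 20.5 CPM in young WT, 14.4, 11.7, 11.2, 13.8 and 16.4 in old WT and 12.2, 13.0, 11.3, 9.68 and 11.7 in old KO. It fell by 0.65 on the log2 scale (SE 0.113, adjusted p = 0.00166) without overlap of the ages. Of its exon bases 1240 (32.3%) lie opposite exons of Srr on the other strand, and whether the counting used strand is not given in the sources used here. Srr itself had a log2 fold change of 0.26 with age (adjusted p = 0.106). Rrp9, a protein of the snoRNP that guides the first cuts of the precursor, fell by 0.56, and Utp20 and Nop14, scaffold proteins of the early complex, fell by 0.31 and 0.28. These calls were lost with single libraries left out: Rrp9 without young WT 1 or 2, Nop14 without these or old WT 1, 4 or 5, and Utp20 without young WT 1, 2 or 3, old WT 1, 4, 5 or 10 or old KO 2, 4 or 6 (adjusted p of up to 0.126). Nat10, an acetyltransferase, had -0.23 and did not pass (adjusted p = 0.0601). Its old WT libraries (22.2 to 25.4 CPM) nevertheless all lay below its young WT libraries (26.5 to 31.6 CPM). Utp15 and Utp18, further proteins of the early complex, and Ddx10, a helicase, had -0.20, -0.12 and -0.021 and did not pass.

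Of the large subunit factors 4 of 9 fell, beside 8.91% of all genes tested. Rrp1b (chromosome 17, 32173045 to 32199810, plus strand) read 14.6, 11.8, 7.17, 8.38 and 8.11 CPM in young WT, 6.25, 5.73, 5.82, 7.15 and 5.40 in old WT and 5.92, 4.90, 5.48, 4.23 and 5.89 in old KO. Its lowest young value, 7.17, was only just above the highest old one, 7.15, while young WT 1 reached 14.6, and Rrp1b fell by 0.72 on the log2 scale (SE 0.174, adjusted p = 0.00985). Nop2, a methyltransferase of the large subunit RNA, fell by 0.58, Rrp1, the paralog of Rrp1b, by 0.28, and Pes1 by 0.26. Pes1 lost its call without young WT 1 or 2 or old WT 4, and Rrp1 without any of young WT 1 to 4, old WT 1, 4, 5 or 10 or old KO 2, 4 or 5 (adjusted p of up to 0.112). Pes1 works in a complex with Bop1 and Wdr12, whose changes were -0.32 (SE 0.136) and -0.11 (SE 0.139) and did not pass. The further assembly factors Wdr74, Ebna1bp2 and Nop16 (-0.27, -0.15 and -0.046) did not pass either.

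**Figure D3:**
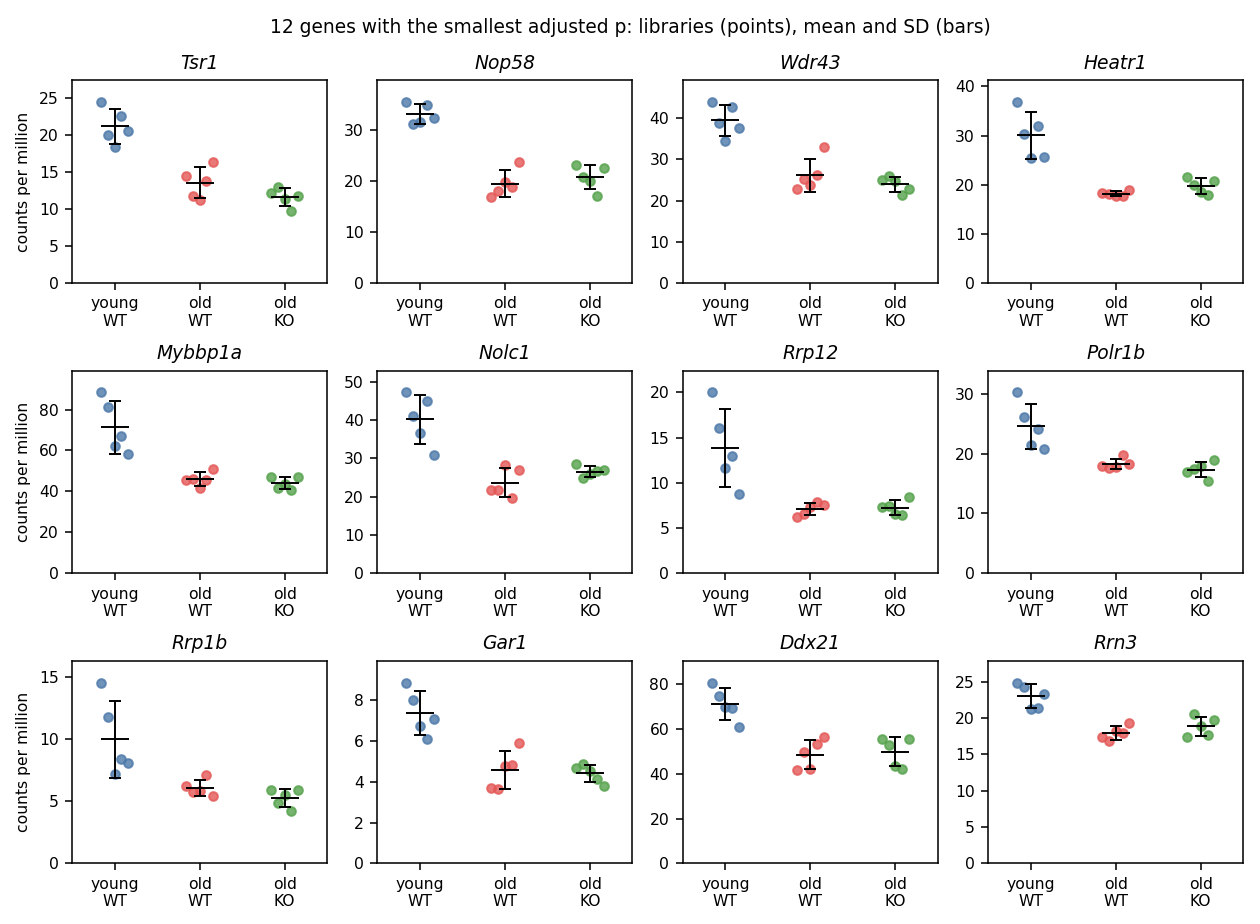
CPM (y axis, from 0) of the 12 genes with the smallest adjusted p, in young WT, old WT and old KO (x axis), 1 point per library in order of replicate number, with the mean and SD of 5. In each of the 12 the young WT points lie above all old WT and all old KO points.

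Exons of 11 of the 39 genes overlap exons of another annotated gene, in each case on the opposite strand. Of these 11, 7 fell with age, beside 53.8% of the 39. Apart from Tsr1, the overlap covers at most 5.27% of the exon bases (Nop14). The partners of Polr1a, Nop14 and Pes1 had too few counts to be tested, and those of Nop56 (Idh3b, -0.14), Mybbp1a (Spns2, 0.039) and Rrp9 (Parp3, 0.63, adjusted p = 0.00226) did not fall. Among the 39, 6 genes carry 17 annotated snoRNA genes within their bounds on the same strand. These hosts are Nop56 and Nop58 (4 each), Ncl and Wdr43 (3 each), Tsr1 (2) and Dkc1 (1). Of the 6, 4 fell with age, beside 53.8% of the 39. The hosted snoRNAs have no poly(A) tail and were not measured through these genes.

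Between the genotypes at 600 days, none of the 39 genes passed in edgeR, where 0.533% of all genes tested did (76 genes, but 9 without old WT 4 and 108 without young WT 2). None had an unadjusted p under 0.05 either, where 11.6% of all genes tested did, and in none were the old KO and old WT libraries apart, where this held for 3.2% of all genes. DESeq2 and limma voom also gave 0 of 39 at an adjusted p under 0.05 and 0 at an unadjusted p under 0.05. Under 9 of 25 alternatives 1 gene had an unadjusted p under 0.05 (Tsr1, Ebna1bp2, Nop10 or Nat10). The median log2 fold change was 0.029, beside 0.0008 over all genes, with 24 genes above 0 and 15 below.

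The intervals, taken gene by gene and not adjusted for the number of genes, give the range of genotype differences that each gene leaves possible. The 95% interval of the log2 fold change lay inside -0.5 to 0.5 in 37 of the 39 genes and inside -0.3 to 0.3 in 15. In the other genes it reached beyond that range, so a difference of the size of the median age change (-0.28) is not excluded there. The largest estimates in each role were Polr1e 0.10 (95% interval -0.25 to 0.45), Nop56 0.15 (-0.16 to 0.47), Nop10 0.14 (-0.054 to 0.34), Nolc1 0.16 (-0.085 to 0.41), Tsr1 -0.22 (-0.46 to 0.021) and Rrp1b -0.20 (-0.58 to 0.18). Polr1b differed by -0.076 (-0.28 to 0.13), Rrn3 by 0.071 (-0.084 to 0.23) and Nop58 by 0.092 (-0.12 to 0.30). Tsr1 had the smallest unadjusted p of the 39, 0.071, with 13.5 ± 2.10 CPM in old WT and 11.6 ± 1.22 in old KO.

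Setting old KO beside young WT changes age and genotype at once, which cannot be told apart there. It gave 18 of 39 lower and 0 higher, where 11.3% of all genes tested were lower and 12% higher. The median log2 fold change was -0.30, beside -0.0055 over all genes. In 17 of the 39 every old KO library was below every young WT library, where 6.56% of all genes did so. Of the 21 genes lower in old WT, 17 also passed here, and the comparisons share the young WT libraries. The 4 that did not were Polr1e (-0.41, adjusted p = 0.0826), Nop14 (-0.23, 0.0549), Rrp9 (-0.38, 0.0872) and Rrp1 (-0.19, 0.13). Nat10, an acetyltransferase of ribosomal RNA, passed here (-0.38, adjusted p = 0.00453) and not with age in WT (-0.23, adjusted p = 0.0601). The direct test between the old groups passed for none of these 5 genes.

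**Figure D4:**
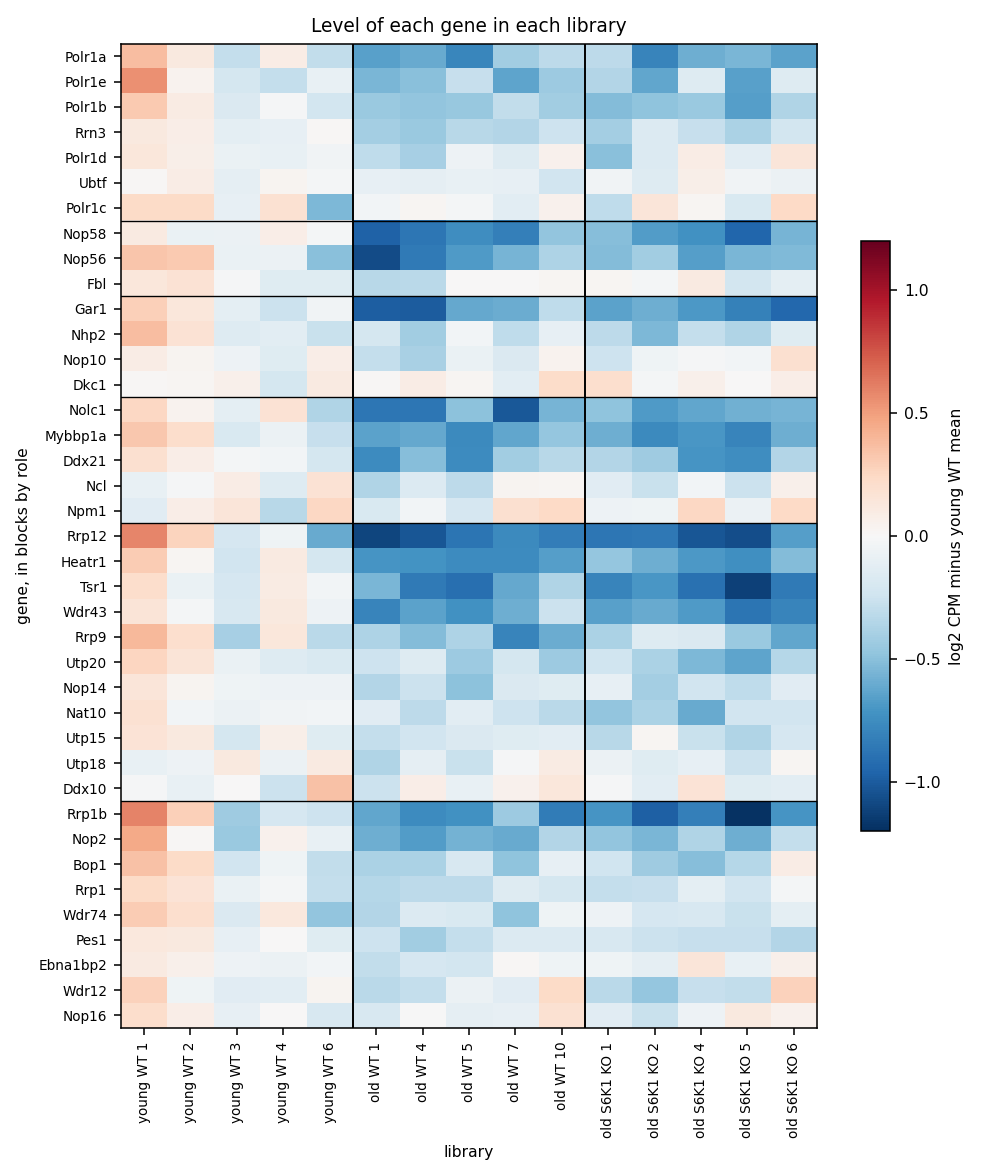
Log2 CPM of the 39 genes (rows, in blocks by role) in each of the 15 libraries (columns), relative to the young WT mean, with blue for lower and red for higher. Blue fills the rows of Nop58, Gar1, Nolc1, Rrp12 and Heatr1 in all 10 old libraries, rows such as Dkc1 and Npm1 stay pale, and young WT 1 is the reddest column.

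Further genes of the same machinery, outside the 39, were also lower in old WT. Of 117 more genes of RNA polymerase I, subunit assembly, snoRNP assembly and the nuclear exosome, 50 fell with age and none rose, with a median of -0.25. That is 42.7%, where 8.91% of all genes tested fell and 9.92% rose. Large subunit factors gave 26 of 46 (median -0.33), small subunit factors 15 of 38 (-0.22), exosome genes 5 of 12 (-0.24), RNA polymerase I genes 3 of 12 (-0.08) and snoRNP assembly factors 1 of 9 (-0.11). None of the 117 passed between the genotypes, where 0.533% of all genes tested did. Against young WT, old KO had 48 of the 117 lower and 3 higher, where 11.3% of all genes tested were lower and 12% higher.

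Up to 4 genes per list, those with the largest change in any of the 3 comparisons among genes that passed, are named here. Nle1, of the large subunit, fell by 0.84 (SE 0.236, adjusted p = 0.0216), Rpf2 by 0.68 and Ppan by 0.66, and Gnl3, nucleostemin, by 0.51. Of the small subunit, Pdcd11 fell by 0.65, Cirh1a by 0.58, Bysl by 0.56 and Nol6 by 0.55. Dis3, a catalytic subunit of the exosome, fell from 16.4 ± 1.43 CPM in young WT to 10.1 ± 0.65 in old WT (log2 fold change -0.70, adjusted p = 0.000248), beside Exosc1 and Exosc9 (-0.42 each) and Exosc10 (-0.27). Cd3eap and Taf1d (-0.55 each) and Taf1b (-0.48), all of the RNA polymerase I machinery, fell too, and of the snoRNP assembly factors Nufip1 fell by 0.46. Of the same assembly factors Rpap3 (-0.38) and Pih1d1 (0.32) passed in old KO against young WT, and they had -0.24 and 0.18 with age in WT and did not pass there.

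RNA polymerase III, which makes transfer RNAs and the smallest ribosomal RNA, had 3 of 20 genes lower and 1 higher with age (median -0.11). That is 20% of its genes, beside 18.8% of all genes tested that passed with age. Polr3d (-0.49) and Gtf3c4 (-0.41) fell. Polr3g, whose paralog takes its place in many differentiated cells, rose from 7.16 ± 1.16 to 10.1 ± 1.17 CPM (0.50, adjusted p = 0.0143) and stood at 13.2 ± 2.05 in old KO. Gtf3c3 passed in old KO against young WT alone (-0.48). In the Myc network 1 of 9 genes tested passed with age (11.1%, beside 18.8% of all genes tested). It was Mxd4, a repressor that competes with Myc for its partner Max (0.28, adjusted p = 0.0192). Mga passed in old KO against young WT (-0.45, adjusted p = 0.00355). Myc read 4.95, 10.99, 6.98, 5.24 and 2.93 CPM in young WT, 2.87, 4.55, 4.503, 11.7 and 6.10 in old WT and 5.80, 4.03, 3.56, 4.11 and 4.27 in old KO. The groups overlapped throughout, and its log2 fold change with age was -0.076 (adjusted p = 0.901).

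In the S6K and mTORC1 list, 1 of 9 genes passed with age (11.1%, beside 18.8% of all genes tested). It was Rheb (-0.19, adjusted p = 0.0486), the GTPase that activates mTORC1. Between genotypes only the deleted gene itself passed. Mtor and Rptor, the kinase and its scaffold, were below their young WT level in old KO (-0.31 and -0.22), at -0.42 (adjusted p = 0.102) and -0.10 against old WT. Messenger RNA levels say nothing of the activity of these kinases.

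**Figure D5:**
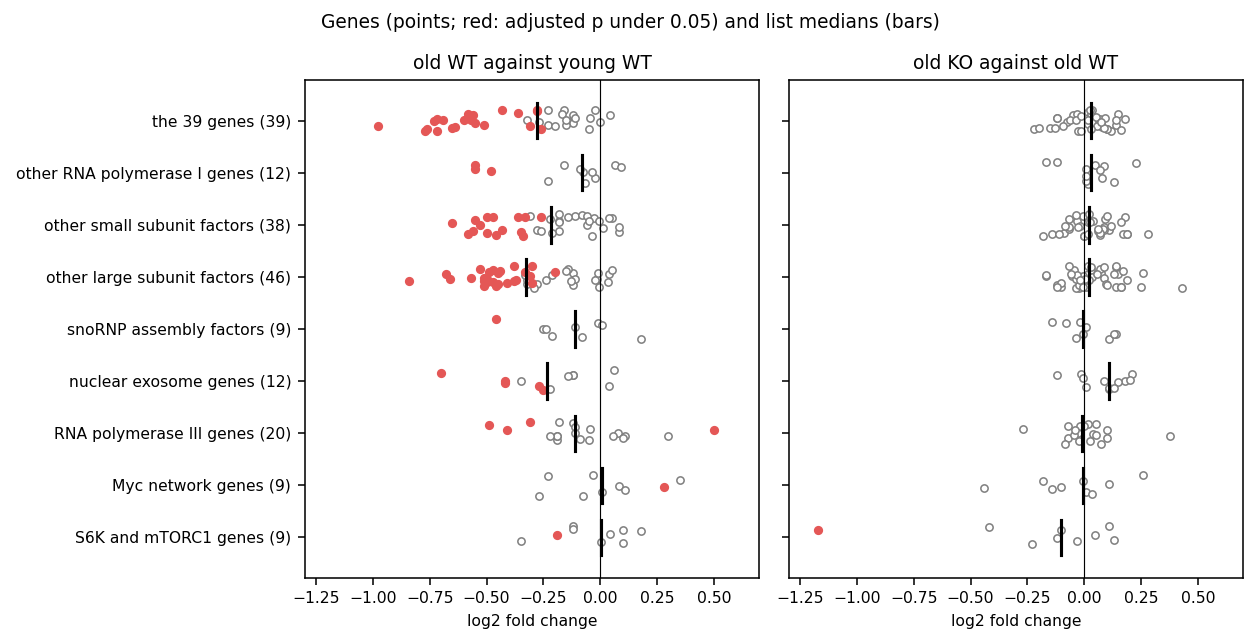
Log2 fold changes (x axis) of the 39 genes and of 8 further lists (y axis, number of genes tested in brackets), old WT against young WT on the left and old KO against old WT on the right, 1 point per gene, red where the adjusted p was under 0.05, with bars at list medians. On the left the medians of the 39 genes (-0.28), the other large (-0.33) and small subunit factors (-0.22) and the exosome genes (-0.24) are the lowest. Those of RNA polymerase III (-0.11), snoRNP assembly factors (-0.11) and other RNA polymerase I genes (-0.08) also lie below 0. On the right the single red point is Rps6kb1.

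Some other properties of the libraries moved with the same groups, and their part in the age result was not tested. As a share to set the marker counts beside, 8.91% of all genes tested fell with age and 9.92% rose. Summed CPM of the 8 hepatocyte markers had a median of 135000 in young WT, 104000 in old WT and 123000 in old KO, and 2 of the 8 fell with age. Endothelial markers (6 genes, summed CPM 155 to 288 in the young group, 119 to 209 in old WT, with 147 to 169 in old KO) had 2 lower with age. Markers of B and plasma cells (6 genes, 3.11 to 6.24, 7.69 to 41.3 and 13.7 to 71.2 CPM) had 3 higher, those of T cells (6 genes, 2.11 to 5.04, 3.27 to 10.3 and 2.10 to 6.10 CPM) had 2 higher, and those of stellate cells and fibroblasts had 1 of 6 higher, as had those of monocytes and macrophages with 1 of 9. Of the cycling-cell markers 2 of 9 tested rose with age, with summed CPM of 34.4 to 45.3 in young WT and 35.9 to 45.5 in old WT. No marker gene of the 9 lists was at 0 in every library.

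Between genotypes, markers of monocytes and macrophages moved while the 39 genes did not pass. Their summed CPM spanned 180 to 410 in young WT animals, 233 to 582 in old WT animals and 142 to 214 in old KO animals, and 4 of 9 were lower in old KO than in old WT (median log2 fold change -1.18), with all 9 at an unadjusted p under 0.05. Of the cycling-cell markers 6 of 9 tested had an unadjusted p under 0.05 between genotypes and none passed. Over all genes tested 0.533% passed between genotypes and 11.6% had an unadjusted p under 0.05 (edgeR). Markers of bile duct cells (4 genes, all tested) and neutrophils (2 of 5 genes tested) had no gene past the threshold in any comparison. Exon length also moved weakly with age: the median log2 fold change of all genes went from 0.042 in the shortest to -0.032 in the longest of 5 length classes, and the fallen genes of the list numbered 1 of 6, 5 of 9, 7 of 11, 4 of 6 and 4 of 7 across those classes. With length as an offset, 20 of the 39 fell with age (median -0.31), beside 1341 of all 14258 genes tested. With every library thinned to the lowest total count, 20 of the 39 fell (-0.30), beside 1259 of the 13812 genes tested then.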

How the data were processed

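Poly(A) RNA sequencing of 15 mouse livers was analysed from 1 table. Per the labels and the study's methods, the authors made TruSeq Stranded mRNA libraries from RNA with an integrity score above a set minimum, called bases with CASAVA, aligned single-end reads to mm9 with TopHat (TopHat2 2.0.11 in the submitters' processing notes) and counted with HTSeq. Each deposited value is a raw count of reads for 1 gene in 1 animal, neither normalised nor pooled. The annotation release and the strand setting of the counting are not given in the sources used here. The notes also name DESeq2 1.18.1.

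Symbols and positions came from GENCODE M1 on NCBIM37 (mm9). Of 37991 identifiers, 37205 had a position. Of 160 other listed genes 157 matched (not Taf1a, Noc2l and Exosc6) and all 60 markers did. Counts were scaled by TMM, filtered with filterByExpr and fitted with edgeR 4.0.16 (glmQLFit, glmQLFTest; R 4.3.3) on all 15 libraries with group as the only term. P-values were adjusted by Benjamini-Hochberg over 14258 genes, threshold 0.05. SE, 95% intervals and log2 fold changes are those of this fit. CPM per library uses TMM-scaled totals, and log2 CPM a prior count of 2. Fits were tested on simulated counts with known changes. Total counts of 21801754 to 38065359 gave between 68 (Polr1e) and 8677 (Ncl) counts per gene and library for the 39 genes. The p-values set each group difference against the spread between animals within groups.

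Of genes past the threshold, the 12 with the smallest adjusted p over the 3 comparisons are given in every library, with the largest change with age and between genotypes in each role, and up to 4 genes per other list. Other genes, those named as flat included, were chosen after their values were seen. The 39 genes, the lists, the motifs and this rule were chosen with earlier results of these data known. Alternatives were DESeq2 size factors, upper-quartile scaling, no filter, at least 10 counts in every library, DESeq2 1.42.0, limma voom 3.58.1, the 10 libraries of a comparison alone, a replicate block, leaving out each library and, chosen after seeing the data, an offset for exon length and thinning to the lowest total. Libraries of a group differed by more than sampling noise.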

Additional observations from a re-analysis of the deposited data

How the results depend on the processing

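Under 25 alternatives to the fit, 0 of the 39 genes passed between the genotypes, and leaving out 1 library at a time gave 15 to 22 that fell with age. Of the 39, 12 fell with age under all 25, 34 had a log2 fold change below 0 under all 25, and 16 fell under none. The median with age stayed between -0.37 and -0.23. DESeq2 called 302 of all genes between genotypes and limma voom 23, against 76. Leaving out 1 library gave 9 (without old WT 4) to 108 (without young WT 2), and between these the count was 10, 37 and 42 with old WT 1, 7 or 10 left out, 13, 14, 17 and 13 with old KO 2, 4, 5 or 6 left out, and 41 with young WT 4 left out. All genes called with age numbered 1748 without young WT 1 and up to 3284 without young WT 6.

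With the replicate block, 13 of the 39 and 899 of all genes passed with age, and 6 of all genes between genotypes. Then 8 genes lost their call with age: Polr1b (-0.49), Rrp1b (-0.79), Rrn3 (-0.38), Polr1e, Utp20, Nop14, Rrp9 and Rrp1. Same-numbered animals of different groups had correlations of their deviations between -0.153 and 0.077. No library correlated best with its own number in any pair of groups, and nothing else pairs the animals. Young WT 3, old WT 7 and old WT 10 share their number with no other library, so the block leaves them without weight in the comparisons. The cause of the lost calls was not tested. Genotype differences near 0, none of them past the threshold, changed sign: with the replicate block Wdr43 (0.02), Mybbp1a (0.002), Gar1 (0.14) and Polr1a (0.20), and with 1 library left out Rrp12 (-0.034 to 0.061), Gar1 (-0.13 to 0.058), Ddx21 (-0.016 to 0.094) and Polr1a (-0.10 to 0.038). Polr1e lost its call with age without filter and in the 10 libraries alone too.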
